A study of Mus musculus with 2 samples.

Results

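Translation initiation factors (eIFs) are the proteins that bring the initiator tRNA, the small ribosomal subunit and the capped mRNA together at the start codon. The probe sets of this group were those whose single gene symbol in the platform annotation begins with Eif1 to Eif6, leaving out the Eif2ak kinases and Eif4ebp1. This gave 91 probe sets for 37 genes, of 12393 genes with a single-symbol probe set on the array. The 37 genes fall into 8 of the eIF2 group, 11 of the eIF3 group, 11 of the eIF4 group and 7 of eIF1, eIF5 and eIF6. All 37 were measured, with signals above the floor (44.0, explained below) on both arrays, and 79 of the 91 probe sets were above it on at least 1 array.

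The messenger RNA signals come from the RAW264.7 line, macrophage-like cells from a mouse tumour, hybridised to Affymetrix mouse arrays of 22690 probe sets. Cells were given adenosine at 300 uM plus IFN-gamma at 1000 U/ml, or that dose of IFN-gamma without adenosine, each for 4 h. Each treatment is 1 array of RNA pooled from 2 experiments, and no array of cells without IFN-gamma was analysed here. No test was possible with 1 array in each treatment, no difference has a replicate check, and having so few arrays limits the precision throughout.

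In the cell, eIF2 carries the initiator tRNA to the small subunit as a complex with GTP, and eIF2B reloads it with GTP. Phosphorylation of eIF2 alpha blocks that exchange and is the shared step of the integrated stress response. eIF3 is a large scaffold on the small subunit, and eIF4F (the cap-binding eIF4E, the scaffold eIF4G and the RNA helicase eIF4A) recruits the mRNA. In human macrophages IFN-gamma is known to act on the cap-binding step through the kinases mTOR and MNK.

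The adenosine array was dimmer, with a median of 15.2 against 45.9 on the IFN-gamma array over all gene probe sets. Its signals were therefore multiplied by 2.82, which removes a median log2 ratio of -1.50, and signals under 44.0, the 50th percentile after scaling, were raised to that floor. All signals and log2 ratios below are on this scale and each ratio is that of the adenosine plus IFN-gamma array to the IFN-gamma array, unless called deposited. Spiked-in hybridization controls (18 probe sets) had a deposited median log2 ratio of -0.53, so the scale gives relative and not absolute amounts. All 9 macrophage markers examined were measured, with summed signals of 39823 on the adenosine array and 30703 on the IFN-gamma array. Lyz2 (13361 against 6444) contributed most to the difference in the sums, and 4 of the 9 had log2 ratios below 0, from -0.04 (Itgam) to -0.94 (Fcgr3). None of 17 markers of T cells, B cells, fibroblasts, epithelium and endothelium reached the floor, with summed signals of 99.2 on the adenosine array and 51.8 on the IFN-gamma array.

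The widest gap among the 6 pairs of related factors compared lay between the paralogous helicases Eif4a2 and Eif4a1, so their promoter windows are shown (RefSeq, GRCm38.p6, 250 bases before to 50 after the annotated start, on the gene's strand). Both encode the eIF4A helicase that unwinds structure in front of the scanning ribosome. Capitals mark the E-box CACGTG, a palindrome bound by MYC-MAX and by the USF and MITF families.
Eif4a2, chr16:23107218-23107517 (+): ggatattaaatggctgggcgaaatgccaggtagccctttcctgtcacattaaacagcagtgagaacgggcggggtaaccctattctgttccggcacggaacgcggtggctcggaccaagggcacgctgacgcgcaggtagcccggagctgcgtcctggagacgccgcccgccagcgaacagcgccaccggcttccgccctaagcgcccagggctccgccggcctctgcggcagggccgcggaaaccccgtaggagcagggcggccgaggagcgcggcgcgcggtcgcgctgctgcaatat
Eif4a1, chr11:69672374-69672673 (-): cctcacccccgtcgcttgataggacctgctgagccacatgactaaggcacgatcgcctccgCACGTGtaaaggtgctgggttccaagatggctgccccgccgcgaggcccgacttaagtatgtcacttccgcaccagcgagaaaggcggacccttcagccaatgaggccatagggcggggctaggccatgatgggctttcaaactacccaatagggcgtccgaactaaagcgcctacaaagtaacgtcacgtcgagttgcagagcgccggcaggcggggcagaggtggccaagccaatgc

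Eif4a2 had a signal of 747 with adenosine plus IFN-gamma, against 1639 with IFN-gamma alone (deposited, 265 against 1639). Its log2 ratio of -1.13 made it 2.20-fold lower, the lowest of the 37 genes and the only initiation factor gene past 2-fold in either direction. Eif4a1 had signals of 7229 with adenosine and 5746 without it, a log2 ratio of 0.33. The 2 log2 ratios thus lay 1.47 apart, a difference that no constant scaling of an array can alter. Other Eif4a1 probe sets gave 0.46 and -0.10, whereas Eif4a2 has a single probe set. With scalings that follow signal strength the difference was smaller, 0.98 with loess and 0.90 with quantile scaling. Eif4a1 then lay just below the array median (-0.10 and -0.14) and Eif4a2 stayed past 2-fold lower (-1.08 and -1.04).

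Of the 37 genes 1 was lower by 2-fold or more and 0 were higher by that much, against 10.1% and 4.52% of all 6818 measured genes. At 1.5-fold, 4 were lower (Eif4a2, Eif4enif1, Eif1a and Eif2s3y) and 2 higher (Eif5a and Eif1b), against a background of 21.8% and 12.9%. Many initiation factor probe sets are bright, and 26 of the 37 genes lay among the 1705 brightest measured genes (mean signal of 694 or more). Of those 1705 genes, 6.1% were lower and 2.4% higher by 2-fold or more, and 13.2% were lower and 11.7% higher by 1.5-fold or more. Within 1.5-fold lay 22 of the 26 (84.6%), against 75.1% of the 1705. The median log2 ratio of the 37 genes was 0.06, against -0.08 over all measured genes and 0.01 over the 1705 brightest. Their log2 ratios had an SD of 0.43 over genes, against 0.72 over all measured genes and 0.60 over the 1705 brightest.

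**Figure D1:**
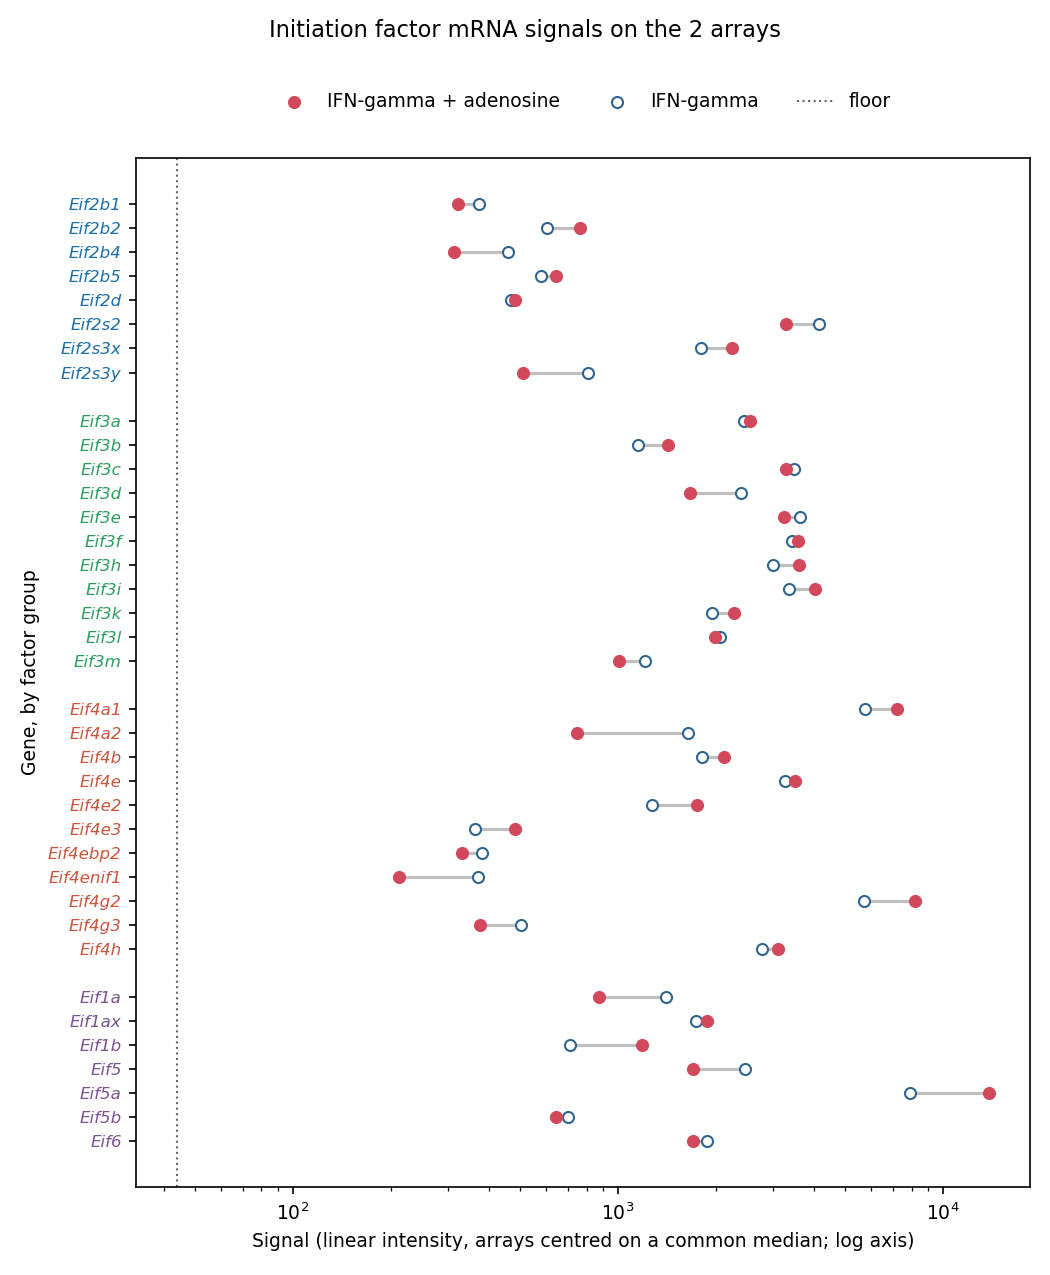
Signals of the 37 initiation factor genes on the adenosine plus IFN-gamma array (filled points) and the IFN-gamma array (open points), as linear intensity on a log axis after median centring, with the floor of 44.0 dotted. Gene names are coloured by factor group, and a grey line joins the 2 arrays of a gene. Most pairs lie close together, and Eif4a2 has the longest line, from 747 with adenosine plus IFN-gamma to 1639 with IFN-gamma.

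The spread to set these ratios against is that between probe sets of the same gene. It was taken from the 2 probe sets of highest mean signal, as the SD of their difference divided by the square root of 2. This SD was 0.52 on the log2 scale over 2375 genes with a pair of probe sets above the floor on each array. Over the 21 initiation factor genes among them it was 0.28, and their dimmer probe sets do not enter it. With the 2375 genes in 4 equal groups by signal, the brightest group had an SD of 0.42. Differences between cultures and between hybridizations are not part of this error. Of those 21 genes, 15 had probe sets on both sides of 0, so the direction of those 15 turns with the choice of probe set. The lowest to highest probe set of a gene spanned a median of 0.50, and 2 genes (Eif2s2 and Eif4b) spanned more than 1. The probe set with the lowest mean signal gave a higher log2 ratio than that with the highest in 14 of the 21 genes. The matching shares over all genes with several probe sets were not computed, so neither 15 nor 14 of 21 can be called unusual.

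**Figure D2:**
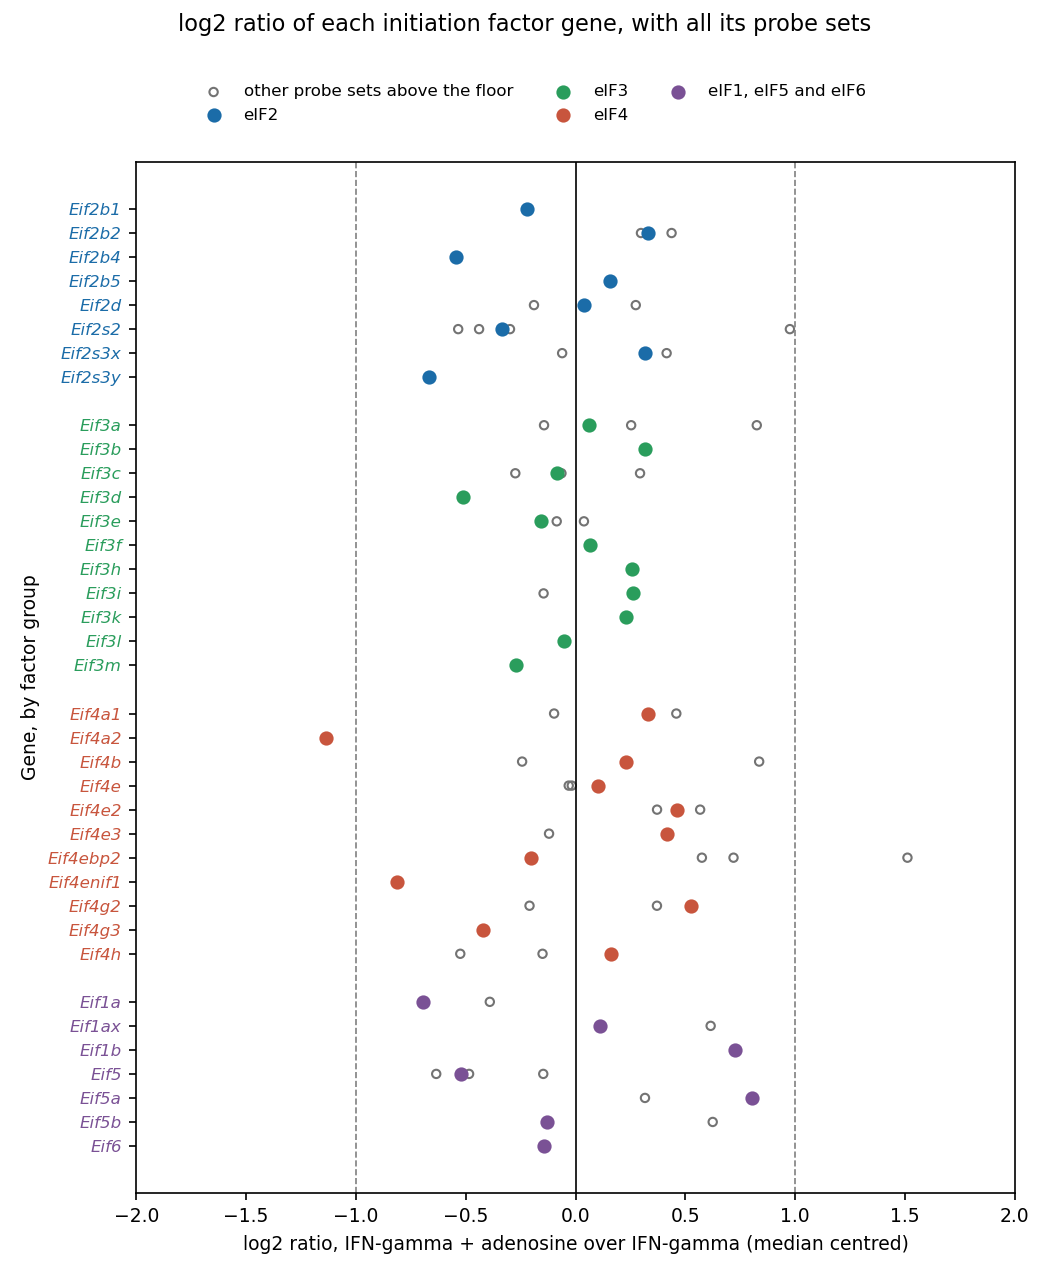
log2 ratio (adenosine plus IFN-gamma array over the IFN-gamma array) for each gene. Filled points are the probe set with the highest mean signal, coloured by factor group, and open points are the gene's other probe sets above the floor. Dashed lines mark 2-fold. The 11 eIF3 genes stay between -0.51 and 0.31, and only Eif4a2 (-1.13) passes 2-fold by the probe set used for its gene.

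The eIF3 genes read from single-symbol probe sets varied least of the groups. All 11 lay within 1.5-fold, with a median log2 ratio of 0.06, an SD of 0.26 over genes and a range from -0.51 to 0.31. Among all measured genes 65.3% lay within 1.5-fold, and among the 1705 brightest 75.1%. Eif3d, a subunit that can itself bind the cap of some mRNAs, was the lowest, with 1670 on the adenosine array and 2383 on the IFN-gamma array. Eif3b, which with Eif3a forms the core of the complex, was the highest, with 1428 against 1148. Eif3a, the largest subunit, had 2547 against 2442, although its 4 probe sets ranged from -0.14 to 0.83. The signals of Eif3c, another core subunit, were 3283 with adenosine and 3483 without. Eif3e had 3246 against 3626 and Eif3f, which carries an MPN domain, 3586 against 3430. Eif3h, the other MPN subunit, was at 3596 against 3005, and Eif3i, a WD-repeat subunit bound to Eif3b, at 4020 against 3349. For Eif3k the signals were 2274 and 1940, for its partner Eif3l 1985 and 2062, and for Eif3m 1005 and 1213, with the adenosine array given first in each case. Of the 11 ratios 6 were above 0 and 5 below. Eif3g was not analysed here. The probe sets shared by Eif3j1 and Eif3j2 are not among the 11 genes. They gave log2 ratios of 0.74, -0.72 and -0.07, the first and second of them past 1.5-fold.

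The eIF2 group had a median log2 ratio of -0.09 over 8 genes, with an SD of 0.38 and a range from -0.67 to 0.33. Its members split evenly, 4 above 0 and 4 below. The gamma subunit, which binds GTP and the initiator tRNA, is encoded on both sex chromosomes in the mouse. The X-linked copy Eif2s3x had 2241 with adenosine plus IFN-gamma and 1800 with IFN-gamma, a log2 ratio of 0.32, whereas the Y-linked Eif2s3y had 511 against 811, a log2 ratio of -0.67 (1.59-fold lower). These lay 0.98 apart. Eif2s3y rests on 1 probe set and the 3 of Eif2s3x ranged from -0.06 to 0.41. Eif2s2, the beta subunit, had 3292 against 4158 (log2 ratio -0.34). Of its other 4 probe sets above the floor 3 gave -0.30 to -0.53, and the dimmest gave 0.98, with 745 against 379. Eif2s1, the alpha subunit that the stress kinases phosphorylate, was not analysed here.

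Within eIF2B, the exchange factor, Eif2b4 (delta) was the lowest, with 313 on the adenosine array and 457 on the IFN-gamma array, a log2 ratio of -0.54. Eif2b2 (beta) was the highest of the whole eIF2 group, with 762 against 606 (log2 ratio 0.33), and its other probe sets gave 0.30 and 0.44. The catalytic epsilon subunit Eif2b5 had 646 against 580, and the alpha subunit Eif2b1 had 321 against 374. Of the 4 subunits read, 2 were above 0 and 2 below, all within 1.5-fold. Eif2b3 was not analysed here. Eif2d, which despite its name is not a subunit of eIF2 but a separate factor that can deliver tRNA to the ribosome, was at 481 against 468.

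The eIF4 group had a median log2 ratio of 0.16 over 11 genes, an SD of 0.55 and the widest range of the groups eIF2, eIF3 and eIF4, from -1.13 to 0.52. Without Eif4a2 the SD was 0.43. The cap-binding protein gene Eif4e was close to the array median, at 3489 with adenosine plus IFN-gamma and 3255 with IFN-gamma, and its 3 probe sets lay between -0.03 and 0.10. Its relatives Eif4e2, which binds the cap but does not join eIF4G, and Eif4e3 had log2 ratios of 0.46 (1744 against 1268) and 0.42 (483 against 362). All 3 probe sets of Eif4e2 above the floor were above 0 (0.37 to 0.57), while the second of Eif4e3 gave -0.12. Among the scaffolds, Eif4g3 had 376 against 504, a log2 ratio of -0.42. Eif4g2, which lacks the eIF4E-binding region and drives cap-independent initiation, had 8190 against 5697. Its log2 ratio of 0.52 came down to 0.07 with loess and -0.00 with quantile scaling. Eif4g1 was not analysed here.

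The helicase cofactors Eif4b and Eif4h lay near the array median, at 0.23 (2125 against 1811) and 0.16 (3104 against 2780). Each had probe sets on both sides of 0, from -0.24 to 0.84 for Eif4b and from -0.52 to 0.16 for Eif4h. Eif4enif1, which encodes 4E-T, a protein that shuttles eIF4E into the nucleus and to P-bodies, was 1.75-fold lower. Its signals were 212 on the adenosine array and 372 on the IFN-gamma array, by its 1 probe set. The cap repressor gene Eif4ebp2 had a log2 ratio of -0.20 (332 against 382) by the probe set with the highest mean signal. Its 3 dimmer measured probe sets gave positive values of 0.58, 0.72 and 1.51, of which those of 0.72 and 1.51 have an IFN-gamma signal below the floor.

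The remaining 7 genes had a median log2 ratio of -0.13 and an SD of 0.57. Eif5a, which encodes the hypusine-carrying factor that helps the ribosome through difficult peptide bonds, had the highest ratio of all 37 genes, with 13842 on the adenosine array and 7928 on the IFN-gamma array (log2 ratio 0.80, 1.75-fold higher). Its other probe set gave 0.32. This ratio shrank to 0.20 with loess and 0.00 with quantile scaling, and in the deposited values it was -0.69. Eif1b, a close relative of the start-codon fidelity factor eIF1, was 1.66-fold higher, with 1181 against 714 (log2 ratio 0.73). It rests on 1 probe set. Its log2 ratio was 0.81 with loess and 0.82 with quantile scaling, but -0.24 with spiked-in scaling and -0.77 as deposited.

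Eif1a and Eif1ax encode forms of eIF1A, which promotes scanning. Eif1a had 871 with adenosine and 1409 without it, 1.62-fold lower, and its second probe set gave -0.39. Eif1ax had 1880 against 1740, a log2 ratio of 0.11, and its second probe set gave 0.62. Eif5, which makes eIF2 hydrolyse its GTP at the start codon, had 1705 against 2449. Its log2 ratio was -0.52, and all 4 of its probe sets lay below 0, from -0.63 to -0.15. Eif5b, the subunit-joining GTPase, had 643 against 703 with a second probe set at 0.62, and Eif6, which keeps free large subunits apart from small ones, had 1705 against 1882.

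The order of the group medians depends on how the arrays are brought to a common level. With median centring, eIF4 (0.16) stood above eIF3 (0.06) and eIF2 (-0.09). With loess scaling the medians were -0.10 for eIF4, -0.10 for eIF3 and -0.00 for eIF2, and with quantile scaling they were -0.00, -0.01 and 0.02. The lowest and highest of these 3 medians were 0.25 apart with median centring and 0.03 with quantile scaling. Without probe sets whose names end in _a_at, _s_at or _x_at they were 0.45 apart. The SD over genes within a group was 0.26 to 0.55. In the values as deposited all 37 genes were below 0 and 34 were past 2-fold lower, a size that 78.8% of all measured genes passed in that direction. The median of the 37 was then -1.46, against -1.50 for all measured genes.

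**Figure D3:**
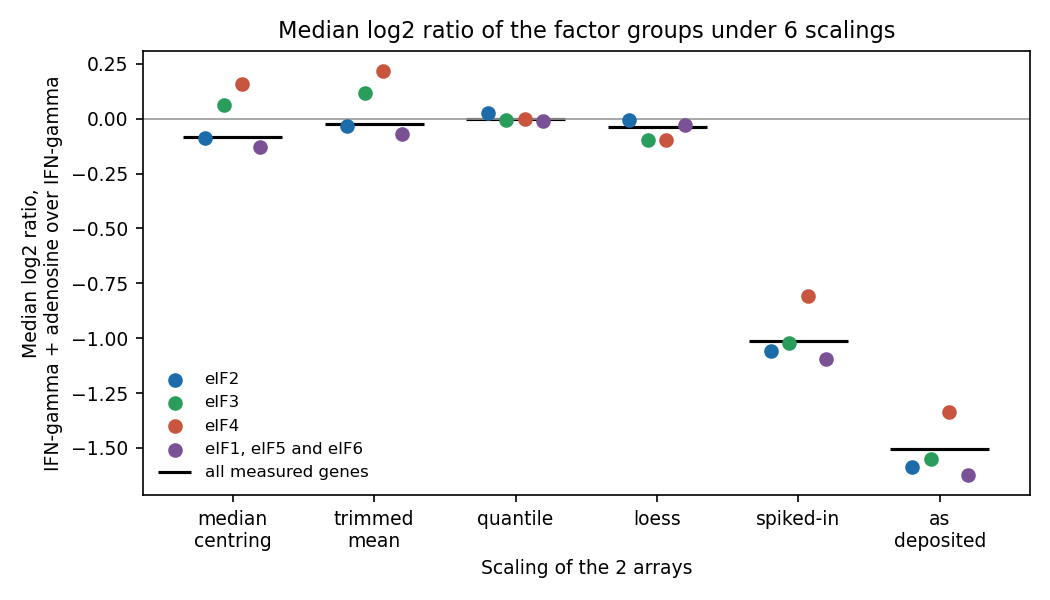
Median log2 ratio (adenosine plus IFN-gamma array over the IFN-gamma array) for the 4 factor groups (points) and for all measured genes (black bars) under 6 ways of bringing the arrays to a common level. The groups stay near the bar of all genes in each column, and eIF4 moves from the highest point with median centring (0.16) to -0.10 with loess scaling.

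Regulators and partners of the factors were read in the same way. The list of eIF2 alpha kinases and phosphatase subunits had 6 measured genes, of which 3 were lower and 1 higher by 2-fold or more, against 10.1% and 4.52% of all measured genes. Its median log2 ratio was -0.997, against -0.08 over all measured genes. The list median was 0.03 over 5 genes without probe sets whose names end in _a_at, _s_at or _x_at. Eif2ak2, which encodes PKR, the interferon-inducible kinase activated by double-stranded RNA, had 143 with adenosine plus IFN-gamma and 477 with IFN-gamma, 3.33-fold lower. Its second probe set gave -0.78. Eif2ak1, the haem-regulated kinase gene, was 2.21-fold higher (474 against 215), with a second probe set at 0.36 and a deposited log2 ratio of -0.35. Eif2ak3, the PERK gene, was at 102 against 100. Eif2ak4, the GCN2 gene, was below the floor with adenosine and at 85.5 without it, at least 1.94-fold lower.

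The phosphatase subunit genes Ppp1r15a and Ppp1r15b, whose products remove the phosphate from eIF2 alpha, had log2 ratios of -1.04 (88.8 against 182) and -1.06 (383 against 799). Both were short of 2-fold with loess (-0.93 and -0.97) and quantile (-0.92 and -0.95) scaling, which left 1 gene of this list past 2-fold lower. A second probe set of Ppp1r15b gave 1.05. Of 10 measured genes of cap and mTOR control 1 was lower by 2-fold or more and 0 were higher, against 10.1% and 4.52% of all measured genes, with a list median of -0.24 that turned to 0.18 with quantile scaling and to 0.01 with the mean of all probe sets. The lower gene was Mtor, the growth-control kinase, at 91.9 against 285, but its second probe set gave 1.55. The IFN-gamma signal of that second probe set was 44.0, at the floor. Eif4ebp1, the main cap repressor under mTOR, had 627 against 1179 (log2 ratio -0.91), with a second probe set at 0.04. Of the 10 genes 5 were above 0 and 5 below. At 1.5-fold 2 were higher and 4 lower, against 12.9% and 21.8% of all measured genes. The 2 higher genes were Tsc2 (log2 ratio 0.83) and Mknk2 (0.78). A second probe set of Mknk2 gave 2.08, with an IFN-gamma signal of 44.4, just above the floor. With the floor at the 67th percentile Tsc2 was at 0.10, Mtor at -0.79 and Mknk2 still at 0.78.

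Downstream of initiation, 1 of 5 measured elongation genes was higher by 2-fold or more and 0 were lower, against 4.52% and 10.1% of all measured genes, with a list median of 0.33 (-1.16 as deposited). Eef1a1, which brings aminoacyl-tRNA to the ribosome, had 15539 with adenosine and 7410 without it, 2.10-fold higher. Its log2 ratio was short of 2-fold with loess (0.45) and quantile scaling (0.33) and was -0.43 as deposited. Eef2, the translocase gene, had a log2 ratio of 0.61 (7290 against 4783), 0.21 with loess and -0.89 as deposited. Of 8 measured poly(A) and helicase partners and 3 measured termination and recycling genes, 0 passed 2-fold in either direction, with medians of -0.23 and -0.39. Larp1, which binds mRNAs with a terminal oligopyrimidine start, came closest, at 721 against 1414 (log2 ratio -0.97). Ddx3x, a helicase that helps translate structured mRNAs, was at -0.89 and passed 2-fold lower with loess scaling (-1.01). Its other probe sets gave -0.65 and 0.16, and the mean of its probe sets was -0.46. Of the 8 poly(A) and helicase partners 3 were above 0 and 5 below. Pabpc1 was the highest of them at 0.72 (0.20 with loess), with a second probe set at -0.73, whose adenosine signal was below the floor.

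**Figure D4:**
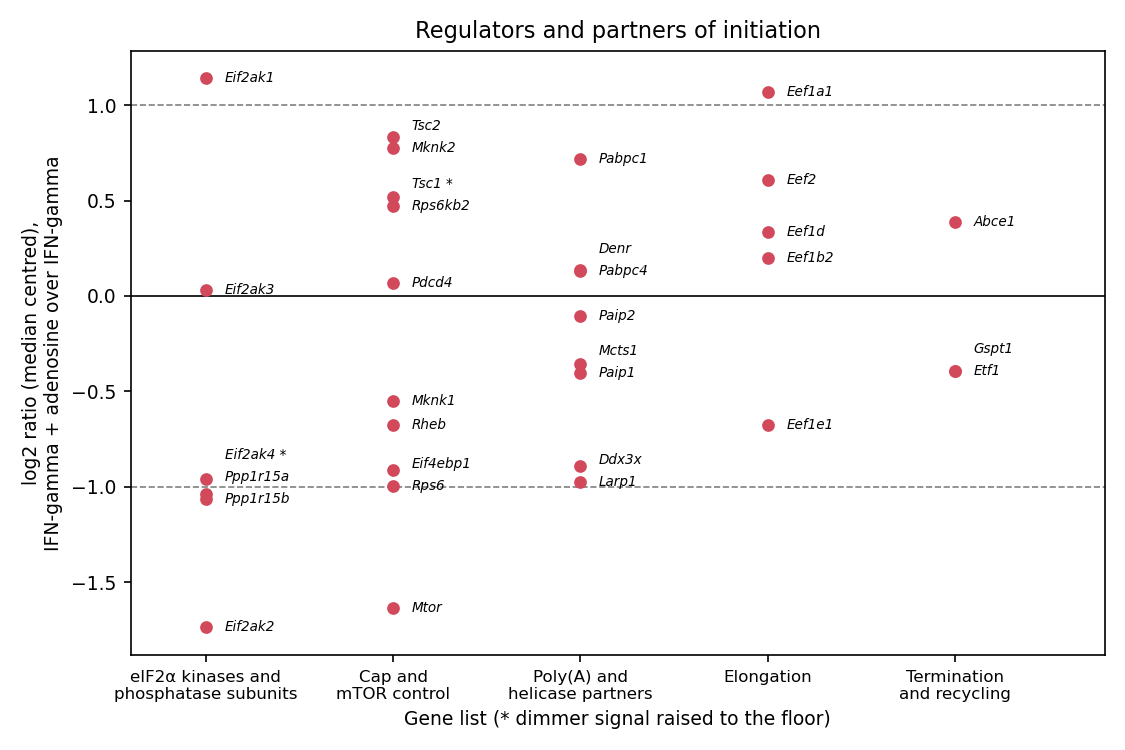
log2 ratio, adenosine plus IFN-gamma array over the IFN-gamma array, after median centring, for measured genes of 5 lists of regulators and partners that are not initiation factors by the rule used. Each point is a gene, labels are shifted where they would overlap, and dashed lines mark 2-fold. The eIF2 alpha kinase list spans from -1.74 (Eif2ak2) to 1.14 (Eif2ak1).

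Promoter windows were found for 30 of the 37 genes. They were searched on both strands for the E-box CACGTG, the cAMP response element TGACGTCA and an NRF1-type motif (GCGC, any 2 bases, GCGC), none of which contains another. The E-box stood in a window of 8 of the 30 genes (26.7%), against 8.09% of all 27025 genes with a window and 12.9% of measured genes with a window. Windows of the initiation factors had a median GC content of 62.3%, against 61.0% for measured genes and 52.7% for all windows. The sites are shown with 10 bases on each side and the motif in capitals.
Eif1b, chr9:120492572-120492597 (+): tgcggacggtCACGTGgcggcggcgc
Eif3a, chr19:60790656-60790681 (-): gcgagggaatCACGTGgttccttcct
Eif3f, chr7:108934337-108934362 (+): agatatgattCACGTGgtataaattt
Eif3k, chr7:28981917-28981942 (-): ggaaggaaatCACGTGgtagacaaaa
Eif4a1, chr11:69672597-69672622 (-): atcgcctccgCACGTGtaaaggtgct
Eif4e, chr3:138527030-138527055 (+): cgccagcgacCACGTGatcacttttt
Eif4e, chr3:138527194-138527219 (+): acacgtccgtCACGTGggcaggagcc
Eif4h, chr5:134639490-134639515 (-): gccgccgcacCACGTGggccgcagag
Eif5a, chr11:69920793-69920818 (-): gctgcgcggcCACGTGaggtggggga
Eif5a, chr11:69921445-69921470 (-): ggggcggggtCACGTGtgtgcgtcat

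By the probe set used for each gene, the 8 genes with an E-box had log2 ratios from 0.06 to 0.80, all above 0, with a median of 0.19. Of the 22 genes with a window and no E-box, 8 were above 0 (median -0.16). Among the genes with an E-box, Eif3a, Eif4a1, Eif4e and Eif4h also had probe sets below 0, the lowest at -0.52 (Eif4h). Eif1b, Eif3f and Eif3k have 1 probe set each, and both of Eif5a were above 0. With loess scaling 4 of the 8 and 8 of the 22 were above 0, with medians of -0.01 and -0.13. Over all measured genes the medians were -0.05 for 731 genes with an E-box and -0.08 for 4919 without. The shares above 0 were 45.7% with an E-box and 44.2% without. TGACGTCA stood in a window of 0 of the 30 genes, against 2.03% of all genes with a window and 3.79% of measured genes with a window. The NRF1-type motif stood in a window of 5 (16.7%), against 7.0% of all genes with a window and 17.8% of measured genes with a window. A match of letters is a description of these windows and not a measured binding site.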

How the data were processed

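Per the labels' protocols, total RNA from RAW264.7 cells was labelled with biotin and hybridised to Affymetrix arrays, 1 array per treatment. The authors deposited 1 linear intensity for every probe set and array, and GCOS is the tool that the submitters' processing notes name. Neither the signal algorithm nor a scaling target is given in the sources used here.

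Of 22690 probe sets, 64 controls stayed out. Of the other 22626, 20380 carried 1 gene symbol, 691 several and 1555 none. All 91 initiation factor probe sets matched RefSeq (GRCm38.p6) by Entrez identifier. The shift between arrays was the median log2 ratio over probe sets above the 50th percentile of deposited signals on both. Signals below the floor were raised to it, and a gene with its brighter array below it was not measured. For every gene the probe set of highest mean signal was used. Python 3.11.15, pandas 2.3.3, NumPy 2.4.6 and statsmodels 0.14.6 (loess, span 0.3) were used. The steps, without the deposited and spiked-in settings, were tested on simulated data. The simulated arrays differed by a constant shift, so that test cannot show which scaling suits the real arrays.

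Every measured initiation factor gene may be named, with fuller values for those 1.5-fold or more from 0 and for the extremes of each group. Of the other lists, genes at 2-fold were to be named, and further genes were named after their values were seen, as were the promoter motifs chosen. The members and lists were chosen with earlier results of these data known.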

Additional observations from a re-analysis of the deposited data

How the results depend on the processing

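No paired analysis was possible because there is 1 array per treatment, so that leaving out a replicate was not possible either. The count of initiation factor genes at least 2-fold lower was 34 without any scaling, where 78.8% of all measured genes were that much lower, and 18 with spiked-in scaling, where 50.7% were. It stayed at 1 (Eif4a2) under the other scalings, floors and choices of probe sets. At 1.5-fold 4 were lower and 2 higher, against 21.8% and 12.9% of all measured genes. At 3-fold 0 were lower, and the share of all measured genes at that size was not computed. Without any scaling the medians were -1.46 for all initiation factors, -1.58 for eIF2, -1.55 for eIF3 and -1.34 for eIF4. With spiked-in scaling they were -0.93, -1.06, -1.02 and -0.81, given in the same order. Both settings change the constant multiplier of the adenosine array, and the probe set with the highest mean signal can change with it. Eif3i was read at -1.64 as deposited, from another probe set. The probe set used for it with median centring had a deposited log2 ratio of -1.23. With loess scaling the medians of all initiation factors and of eIF4 were -0.10 and -0.10, and the cause was not tested. Core subunits alone gave -0.34 for eIF2 (3 genes) and 0.13 for eIF4 (6 genes). Of the 37 genes, 33 kept their sign with loess and 33 with quantile scaling, 36 with trimmed mean scaling and 34 with the mean of all measured probe sets. Without probe sets whose names end in _a_at, _s_at or _x_at, 25 of 25 kept it. Without any scaling and with spiked-in scaling 17 of the 37 kept it, since all 37 were then below 0. Floors set lower (33rd percentile) or higher (67th) and a pseudocount of 16 changed no sign. Scatter between probe sets limits what a single ratio shows.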

Other observations

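Probe sets with several gene symbols stayed out of the values above. Of 3 that carry both Eif3j1 and Eif3j2, an eIF3 subunit loosely bound to the complex, 1 had signals of 1784 on the adenosine array and 1877 on the IFN-gamma array. The others gave log2 ratios of 0.74 (1932 against 1153) and -0.72 (304 against 499), on opposite sides of 0. The probe set shared by Eif4a3, the helicase of the exon junction complex, and Gm5576 had 1878 with adenosine and 1600 without it, a log2 ratio of 0.23. A probe set shared by Eif1a and other symbols was below the floor on both arrays.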
